A study of Mus musculus with 6 samples.

Results

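Translation initiation factors are the proteins that bring the initiator tRNA, the mRNA and the ribosome together at the start codon. Their genes were taken as all protein-coding genes of GENCODE M21 whose symbol begins with Eif followed by a digit from 1 to 6, without the Eif2ak kinases and without the sex-linked Eif2s3x and Eif2s3y. The rule named 49 genes, of which 47 were among the 12149 genes of the deposited table. Eif4e1b and Eif4ebp3 were not analysed here. Expression had been measured in single mouse blastocysts (C57BL/6 background, embryonic day 3.5), collected about 96 h after their zygotes had received an injection of small RNAs from sperm at 2 ng/µl. In the control group (Ctl, 3 embryos) the small RNAs came from normal males, and in the other group (Dep, 3 embryos) from males made depressive by stress, so every embryo of either group had been injected. Each embryo gave 1 library, and the labels do not say whether embryos shared parents, an injection day or a donor male, so p-values measure only the spread between these embryos.

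Initiation proceeds in steps, each with its own factors. eIF2 carries the initiator tRNA with GTP, and eIF2B recharges eIF2 with GTP after each round. eIF1, eIF1A, eIF3 and eIF5 assemble with eIF2 on the small ribosomal subunit, and eIF4F binds the mRNA cap, unwinds the leader and recruits that complex. eIF5B then joins the large subunit. The step at eIF2B is the target of the integrated stress response, in which phosphorylated eIF2 blocks eIF2B. The assembly of eIF4F is held in check by the 4E-binding proteins, which mTORC1 inactivates. In the mouse embryo this machinery is made from the embryonic genome after the maternal supply has been degraded.

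Library depth, counted as reads in listed genes, ranged from 16543356 to 21548220. In Dep 1, 691 of these genes had no read, where the other 5 libraries lacked reads for 5 to 106. Ctl 2, Dep 2 and Dep 3 held Xist (5518, 3784 and 5589 normalized counts) together with the Y-linked Ddx3y (1159.7, 266 and 1141). Why these 3 libraries held both was not tested, and an alternative fit left them out. The libraries held blastocyst markers: all 8 trophectoderm, 6 epiblast and 5 primitive endoderm genes of fixed lists were measured, with Gata4 at 0 reads in Ctl 3 and Dep 1, and Sox17, Sox7 and Fgf4 at 0 in Dep 1. None of the 7 cumulus and granulosa or 3 blood markers was among the listed genes. Of 5 sperm markers, Prm1 alone was listed, at 4.17 to 24.9 normalized counts in Ctl against 19.9 to 48.6 in Dep. Whole embryos were lysed, so fewer cells of a type and less RNA per cell cannot be told apart.

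The initiation factor genes were among the abundant transcripts of the blastocyst. Their median level was 60.0 FPKM (recovered whole reads scaled by the summed exon length of the gene and by the reads of the library), against 6.02 over all listed genes of known length. Eif5a, which encodes a factor that helps the ribosome form difficult peptide bonds, had the highest level at 1957 ± 679.7 FPKM (SD, n = 6 embryos). Eif1, the guardian of start codon choice, followed at 407 ± 64.3, and Eif2s2, the beta subunit of eIF2, at 399 ± 60.6. The difference between these 2 levels was smaller than the spread of either. Eif4ebp1, which encodes an inhibitor of eIF4F assembly, came next at 273 ± 56.8 FPKM, ahead of Eif4a1, the helicase of eIF4F, at 219.6 ± 65.0. These 2 also differed by less than their spread. In all, 11 members lay at 100 FPKM or more, 30 between 10 and 100, and 6 below 10. The lowest were Eif5a2 at 0.297 ± 0.235, Eif4e3 at 0.870 ± 0.689 and Eif3j2 at 1.97 ± 0.259 FPKM, each the rarer relative of an abundant member. All 47 had reads in every embryo. These levels depend on exon lengths summed over all annotated transcripts, which lowers the value of genes with long, little-used isoforms.

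**Figure D1:**
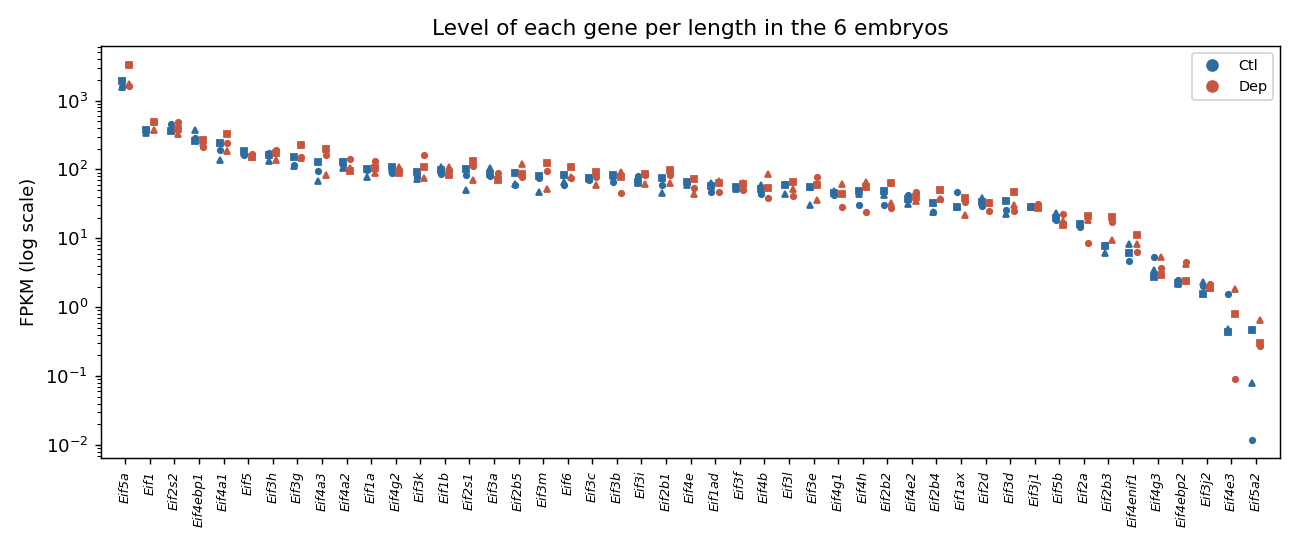
Level of each of the 47 genes in FPKM (log axis), ordered by the mean over 6 embryos, with 1 point per embryo (blue Ctl, red Dep; circle, square and triangle mark embryos 1, 2 and 3). Eif5a stands at the top with a mean of 1957 FPKM, and Eif4e3 and Eif5a2 fall below 1 FPKM.

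No initiation factor gene passed the adjusted threshold between Dep and Ctl, and the 2 smallest unadjusted p-values belonged to eIF2B subunits. Of the 47 members, 30 had a higher mean log2 level in Dep, a share of 63.8% where 48.2% of all genes did, and their median log2 fold was 0.11 against -0.02 over all genes. The deposited values are normalized counts, and folds are Dep minus Ctl in log2(normalized count + 1). No member passed an adjusted p of 0.05 in limma, a linear model across all genes (0 of 47, smallest Benjamini-Hochberg adjusted p = 0.9997), nor did any of the 12149 genes (0.0%). At an unadjusted p under 0.05 there were 2 members, Eif2b3 and Eif2b4, both higher in Dep, where 1.85% of all genes were past that level and 0.831% past it and higher. The groups did not overlap in 1 member, Eif2b4, or 2.13% of members, below the 6.9% of all genes in which they did not overlap (3.09% with Dep higher). edgeR and DESeq2 on recovered reads gave 0 members past the adjusted threshold and the same 2 at the unadjusted one (1.74% and 2.3% of all genes). DESeq2 called 1 gene in all, 0.00824% of those tested, and edgeR 0.0%. With both count models 36 of 47 members had a positive fold, beside 53.5% and 53.4% of all genes. A log2 fold of 0.4 or more was seen in 12 members (15.8% of all genes), and one of -0.4 or less in 0 (21.4% of all genes). Members varied less between embryos, with a median SD of log2 levels of 0.33 against 0.53 for all genes. A fixed fold bound does not allow for this smaller spread, and the part of the spread in these shares was not tested.

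**Figure D2:**
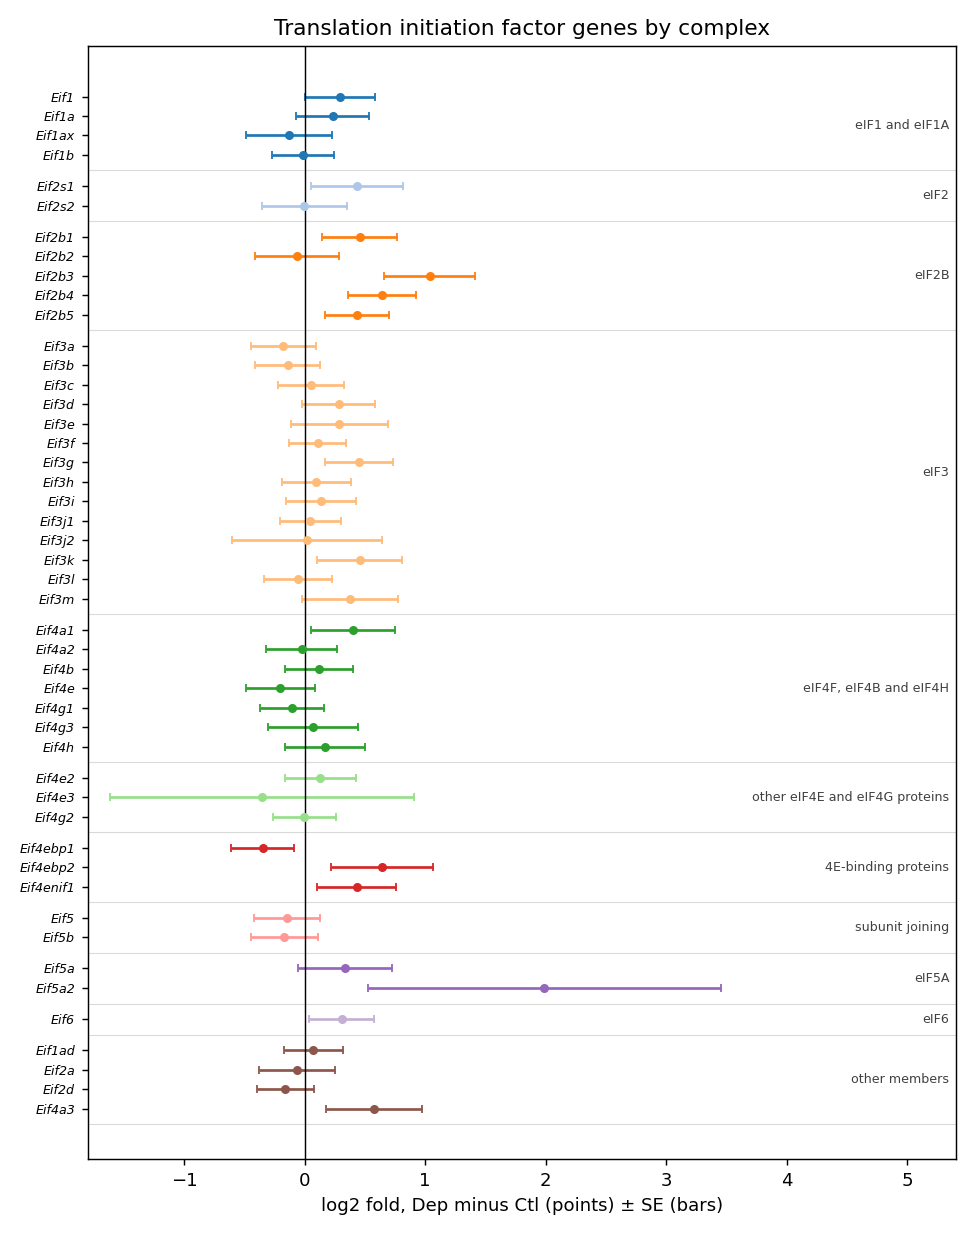
Log2 fold of Dep against Ctl for each gene, grouped by factor complex (points, with SE as bars; n = 3 embryos per group). 4 of the 5 eIF2B genes lie to the right of 0, the eIF3 genes spread from -0.18 to 0.46, and no gene reaches a log2 fold of -0.4.

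eIF2B, the exchange factor that reloads eIF2 with GTP, has 5 subunits, and 4 of their genes had a higher mean log2 level in Dep (median of the 5 folds 0.46). Values below are normalized counts in embryos 1, 2 and 3 of each group. Eif2b3, which encodes the gamma subunit of the catalytic part, had 1037, 910.1 and 702 in Ctl against 2367, 2385 and 1014 in Dep. Dep 1 and Dep 2 lay above every Ctl embryo by more than the range of Ctl, while Dep 3 lay inside that range. The log2 fold was 1.04 ± 0.37 (SE), with an unadjusted limma p of 0.0191 and an adjusted p of 0.9997. Eif2b4, the delta subunit, had 1224, 1499.5 and 1107 in Ctl against 2046, 2386 and 1585 in Dep. This was the only member whose 3 Dep embryos all lay above the 3 Ctl embryos, although Dep 3 exceeded Ctl 2 by little. Its log2 fold was 0.64 ± 0.28 (limma, unadjusted p = 0.0437, adjusted p = 0.9997).

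Eif2b1, the alpha subunit of the regulatory core, had 2968, 3459.9 and 2079 normalized counts in Ctl against 4451, 4599.8 and 2695 in Dep (log2 fold 0.46 ± 0.31, limma, unadjusted p = 0.171). Dep 1 and Dep 2 were again above all Ctl embryos and Dep 3 among them. Eif2b5, the catalytic epsilon subunit, had 2981, 4115 and 2783 in Ctl against 4145, 4047 and 5032 in Dep (0.44 ± 0.26, unadjusted p = 0.127). Here Dep 3 was the highest embryo, unlike in the other subunits, and Ctl 2 lay within the Dep range. Eif2b2, the beta subunit, stood apart from the other 4: it had 1115, 1669.8 and 1410.3 in Ctl against 1078, 2159 and 989 in Dep, with a log2 fold of -0.06 ± 0.35 that turned to 0.01 with edgeR and DESeq2 and to 0.14 with library weights. Its lowest and its highest embryo were both from Dep. In GRCm38, Eif2b3 (ENSMUSG00000028683) spans 117019402 to 117087306 on chromosome 4 and Eif2b4 (ENSMUSG00000029145) 31187558 to 31193430 on chromosome 5.

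Whether these 2 unadjusted p-values stayed under 0.05 depended on the embryo left out, and each such fit has fewer embryos. Without Ctl 3 or without Dep 2, neither Eif2b3 (p of 0.0713 and 0.0740, limma) nor Eif2b4 (0.143 and 0.137) was under 0.05. Eif2b4 also missed it without Ctl 1 (0.103), without Dep 1 (0.0665) and with quantile normalization (0.0523). Without Dep 3 the log2 folds were 1.45 and 0.80. With each embryo left out in turn, the folds ran from 0.83 to 1.45 for Eif2b3 and from 0.51 to 0.80 for Eif2b4. In the fits without Ctl 1, 2 and 3 in turn, 1, 2 and 0 members had an unadjusted p under 0.05, beside 1.0%, 1.88% and 1.13% of all genes, and without Dep 1 and Dep 2, 1 and 0 members, beside 3.9% and 2.87%. Eif2b4 shares 204 exonic bases with Snx17, and the kit does not mark strand, so reads there cannot be told apart. Snx17 had 944 to 1419 normalized counts in Ctl against 1398 to 1719 in Dep, and its part in the Eif2b4 difference was not tested.

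**Figure D3:**
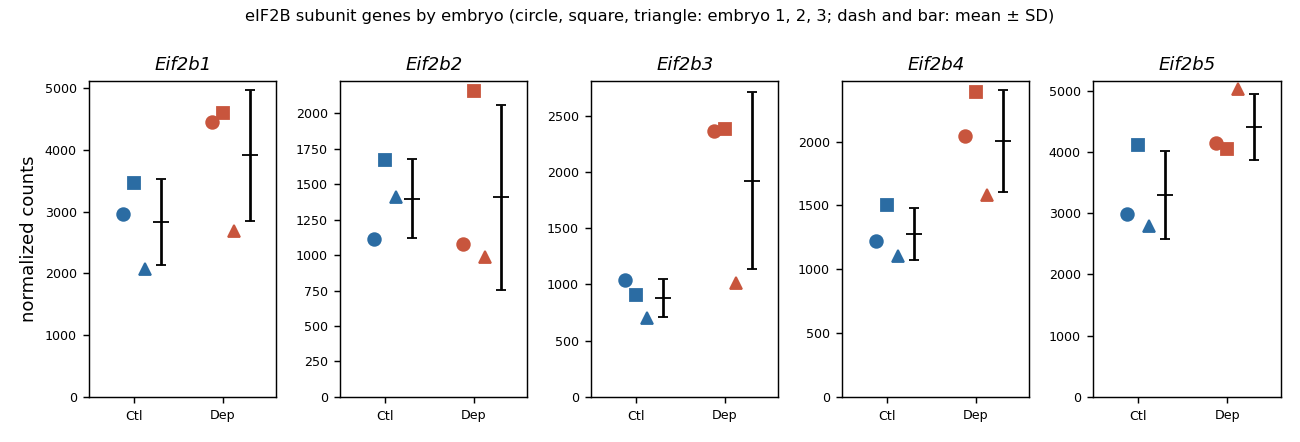
Normalized counts of the 5 eIF2B subunit genes in each embryo (blue Ctl, red Dep; circle, square and triangle mark embryos 1, 2 and 3; dash and bar give the group mean ± SD, n = 3). The 3 Dep embryos lie above the 3 Ctl embryos for Eif2b4 alone, and Dep 3 falls into the Ctl range for Eif2b1 and Eif2b3.

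The promoters of the 4 eIF2B genes with a RefSeq window are shown, of which Eif2b1, Eif2b4 and Eif2b5 had higher mean log2 levels in Dep and Eif2b2 did not. Each is the 250 bases before the RefSeq start site (GRCm38.p6), and the capitals mark matches on either strand to the GC box (GGGCGG) and the CCAAT box (CCAAT). Eif2b4 lies at chr5:31193140-31193389 (minus strand), Eif2b1 at chr5:124579132-124579381 (minus strand), Eif2b5 at chr16:20498567-20498816 (plus strand) and Eif2b2 at chr12:85219231-85219480 (plus strand). The Eif2b4 stretch lies inside the GENCODE span of its gene, whose outermost start is at 31193430. It precedes the RefSeq start but not that GENCODE start.
Eif2b4: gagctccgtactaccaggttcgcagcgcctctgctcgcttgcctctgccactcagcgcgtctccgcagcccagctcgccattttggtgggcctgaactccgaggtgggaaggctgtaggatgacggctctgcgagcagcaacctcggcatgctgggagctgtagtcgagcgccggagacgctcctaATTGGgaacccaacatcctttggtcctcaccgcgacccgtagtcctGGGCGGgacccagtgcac
Eif2b1: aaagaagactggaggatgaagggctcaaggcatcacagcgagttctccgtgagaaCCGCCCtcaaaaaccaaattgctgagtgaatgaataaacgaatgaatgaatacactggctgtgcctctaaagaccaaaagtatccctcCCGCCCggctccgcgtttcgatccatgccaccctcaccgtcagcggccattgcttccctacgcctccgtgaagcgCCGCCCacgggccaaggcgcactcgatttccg
Eif2b5: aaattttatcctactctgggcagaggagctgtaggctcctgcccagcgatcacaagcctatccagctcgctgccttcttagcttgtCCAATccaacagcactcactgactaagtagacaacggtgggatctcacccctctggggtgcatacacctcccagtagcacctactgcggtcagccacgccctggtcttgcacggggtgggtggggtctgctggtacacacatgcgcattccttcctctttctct
Eif2b2: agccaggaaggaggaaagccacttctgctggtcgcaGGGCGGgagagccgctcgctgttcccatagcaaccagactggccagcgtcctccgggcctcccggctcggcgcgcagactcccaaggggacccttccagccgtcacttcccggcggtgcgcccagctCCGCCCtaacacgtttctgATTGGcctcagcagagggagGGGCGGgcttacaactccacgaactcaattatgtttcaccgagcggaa
The Eif2b4 stretch held 1 GC box and 1 CCAAT box, that of Eif2b1 3 GC boxes, and that of Eif2b2 3 GC boxes and 1 CCAAT box, and that of Eif2b5 1 CCAAT box. RefSeq windows of 300 bases, reaching 50 bases past the start, were found for 37 of the 47 members. Of these, 29 held a GC box and 13 a CCAAT box, against 69.5% and 43.2% of listed genes and 35.7% and 37.4% of all windows. The ETS element (CCGGAAG) was in 15 members, 40.5% against 21.4% of listed genes and 8.86% of all windows, and the E-box (CACGTG) in 10, or 27.0% against 11.8% and 7.15%. TATAAA was in 3 members (8.11%, against 8.22% and 13.6%), and the NRF1 element in 1, Eif3k (2.70%, against 2.55% and 0.971%). The cyclic AMP element (TGACGTCA) and the YY1 element were in none (3.78% and 2.60% of listed genes, 1.79% and 0.852% of all windows). A C at the annotated start followed by at least 4 C or T bases, the form of the 5′ terminal oligopyrimidine signal, was found in Eif3f alone (2.70% of members, against 3.07% of listed genes and 2.51% of all windows). Motifs were sought on both strands, except this last one, and none contains another. A match describes letters in a window and no binding.

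eIF2 itself was measured through its alpha and beta subunits. Eif2s1, the alpha subunit that stress kinases phosphorylate, had 8145, 8964 and 4304 in Ctl against 11479, 11938 and 5642 in Dep. Embryo 3 was the lowest of its group in both, and Dep 1 and Dep 2 lay above all Ctl embryos. The log2 fold of 0.43 ± 0.38 did not pass (limma, unadjusted p = 0.281), and it was 0.10 without Ctl 3, 0.27 without Dep 1, 0.24 without Dep 2 and 0.78 without Dep 3. Eif2s2 had a log2 fold of -0.0046 ± 0.35, from 35904 to 68523 normalized counts, with its highest and lowest embryos both in Dep.

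eIF3 is the scaffold that holds the small subunit complex together and receives eIF4G, and all 14 of its genes were measured. In 11 of them the Dep mean was the higher one. The folds of the complex ran from -0.18 to 0.46 around a median of 0.10. Eif3g, an RNA-binding subunit, had the smallest unadjusted p of the complex (0.140, limma): 4567, 5394 and 3892 normalized counts in Ctl against 6339.8, 8159.9 and 4748 in Dep, a log2 fold of 0.45 ± 0.28. Dep 1 and Dep 2 exceeded all Ctl embryos and Dep 3 lay among them, and without Dep 2 the fold was 0.26. Eif3k, a small peripheral subunit, had 4099, 4463 and 3398 in Ctl against 9017, 5321 and 3340.3 in Dep, so that its log2 fold of 0.46 ± 0.35 came mostly from Dep 1. Eif3e and Eif3m, of the outer ring of subunits, had log2 folds of 0.29 ± 0.40 and 0.38 ± 0.40. Eif3e ranged from 3579 in Ctl 3 and 3940.3 in Dep 3 to 10911 in Dep 1, and Eif3m from 2162 in Ctl 3 and 2229.7 in Dep 3 to 5901 in Dep 2. For both, the third embryo of each group was low and the groups overlapped.

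The 2 large core subunits of eIF3 showed little difference. Eif3a, the backbone, had 13953, 13339.5 and 16147 normalized counts in Ctl against 15938, 11048 and 11785 in Dep (log2 fold -0.18 ± 0.27). Eif3c, its partner in the core, had 4812, 4769 and 4453 in Ctl against 5698, 5792 and 3455 in Dep (0.05 ± 0.28), and the direction turned with quantile normalization (-0.02). For Eif3a, Ctl 3 was the highest embryo, Dep 1 lay within the Ctl range and Dep 2 and Dep 3 below it. For Eif3c, Dep 1 and Dep 2 lay above all Ctl embryos and Dep 3 below them. Eif3b, which carries the core's RNA recognition domain, had a log2 fold of -0.14 ± 0.27 and Eif3l one of -0.05 ± 0.28. The remaining subunits Eif3d, Eif3f, Eif3h, Eif3i, Eif3j1 and Eif3j2 had log2 folds from 0.02 to 0.28. Eif3f had the smallest ratio of highest to lowest embryo among the members, from 2677 to 3213 normalized counts. Eif3j1 and Eif3j2 are close copies, so the division of reads between them is uncertain, and Eif3j1 also shares 1107 exonic bases with Spg11.

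The 7 genes of eIF4F, eIF4B and eIF4H had folds of both signs, 4 above 0 and 3 below. Eif4a1, the RNA helicase of eIF4F, had 16249.8, 18749 and 10339 normalized counts in Ctl against 21696, 25615 and 13088 in Dep (log2 fold 0.40 ± 0.35, limma, unadjusted p = 0.274). The order of embryos was the same in both groups, with embryo 2 highest and embryo 3 lowest. The fold was 0.15 without Ctl 3, 0.20 without Dep 2 and 0.69 without Dep 3. Eif4a2, its close relative, had a log2 fold of -0.03 ± 0.29. Eif4e, which binds the cap, had 7644, 7204 and 6251 in Ctl against 6812, 7786 and 4277 in Dep (-0.20 ± 0.29), with Dep 3 below every other embryo. Eif4g1, the scaffold, had 6171, 5897 and 6317 in Ctl against 4335, 5862 and 7279 in Dep (-0.10 ± 0.27). Its Ctl embryos lay within a narrow band, with Dep 1 and Dep 2 below it and Dep 3 above. Without Dep 1 its fold turned to 0.09, and without Dep 3 that of Eif4e turned to 0.06. Eif4g3, Eif4b and Eif4h, a second scaffold and both helicase cofactors, had log2 folds of 0.07 ± 0.37, 0.12 ± 0.28 and 0.17 ± 0.33. The median of this group of 7 was 0.07.

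The genes of 4E-binding proteins had folds of different sign. Eif4ebp1, the abundant 4E-binding protein gene of the blastocyst, had 12286, 10247 and 14501 normalized counts in Ctl against 9635, 10603 and 8679 in Dep, a log2 fold of -0.35 ± 0.26 (limma, unadjusted p = 0.213). The groups overlapped only through Ctl 2, which lay below Dep 2, and without Ctl 3 the fold was -0.22. With quantile normalization the groups did not overlap in 3 members, Eif4ebp1, Eif1 and Eif2b4, or 6.38% of members, beside 6.95% of all genes. Eif4ebp2, far less abundant at 3.01 FPKM, had 277, 235 and 224 in Ctl against 545, 252 and 404 in Dep (0.64 ± 0.42, unadjusted p = 0.160), with Dep 2 inside the Ctl range, and its fold was 0.38 without Dep 1 and 0.40 with library weights. Eif4enif1, which carries eIF4E into the nucleus and into P-bodies, ran from 582 to 921 in Ctl and from 840.1 to 1273 in Dep (0.43 ± 0.32). Eif4e2, a cap-binding protein that represses translation, had 6299.9, 5062 and 4078 in Ctl against 7446, 5410.1 and 4242 in Dep (0.13 ± 0.30), with embryo 1 the highest and embryo 3 the lowest of each group. Its direction turned without Ctl 3 (-0.03) or without Dep 1 (-0.08). Eif4g2, a scaffold for cap-independent initiation, had a log2 fold of -0.0034 ± 0.26 with all embryos between 16303 and 20612. Eif4e3 was too low to compare, from 4.86 to 76.7 normalized counts.

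The groups overlapped in each gene of scanning and of subunit joining. Eif1 had 15489, 14239.5 and 12478 normalized counts in Ctl against 21158, 18749.7 and 12789 in Dep (log2 fold 0.29 ± 0.29), with Dep 3 near the bottom of the Ctl range. The fold was 0.14 without Dep 1, 0.51 without Dep 3 and 0.19 with quantile normalization. Eif1ax, the X-linked copy of eIF1A, had 4889, 2701 and 2613 in Ctl against 3715, 3701 and 1903 in Dep (-0.13 ± 0.36). Ctl 1, which had the most Xist of the 6 (10312) and 1.18 normalized counts of Ddx3y, was the highest embryo, and without it the Eif1ax fold was 0.16, as it was 0.19 without Dep 3. Eif1a, its autosomal copy, had a log2 fold of 0.23 ± 0.30, and Eif1b, a relative of Eif1, one of -0.01 ± 0.26. Reads of such copies cannot be divided with certainty. Eif5, which triggers GTP hydrolysis on eIF2, had 21980.5, 23024 and 20474 in Ctl against 23894, 18878 and 17012 in Dep (-0.14 ± 0.28). Eif5b, the GTPase of subunit joining, had 3575, 3463 and 4020.1 in Ctl against 4550.3, 2738 and 2804 in Dep (-0.17 ± 0.28). In both genes Dep 1 was above and Dep 2 and Dep 3 were below all Ctl embryos, and without Dep 1 the folds were -0.28 and -0.41. Eif5b shares 1643 exonic bases with Rev1.

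Eif5a, the most abundant member, had 73093, 83299.6 and 64454 normalized counts in Ctl against 81048, 142802 and 67564 in Dep (log2 fold 0.33 ± 0.39, limma, unadjusted p = 0.414). Dep 2 lay far above every Ctl embryo, while Dep 1 and Dep 3 lay within the Ctl range. Without Dep 2 the fold was 0.015 and without Dep 3 0.56, and it was 0.61 with quantile normalization and 0.51 with library weights. Eif5a2, its rare paralog, had 1.18, 41.7 and 7.06 in Ctl against 29.1, 27.8 and 53.1 in Dep, and the log2 fold of 1.99 ± 1.46 rests on 1 read in Ctl 1: it was 0.96 without that embryo, 3.10 without Ctl 2 and 1.08 with a pseudocount of 10. Eif6, which keeps the ribosomal subunits apart, had 3166, 4090.3 and 3109 in Ctl against 4227, 5302 and 3402 in Dep (0.31 ± 0.27, unadjusted p = 0.281), with Dep 3 among the Ctl embryos, and its fold was 0.15 without Dep 2 and 0.47 without Dep 3. Eif4a3, a relative of the eIF4A helicases that serves in the exon junction complex rather than in initiation, had 3893, 4817 and 2552 in Ctl against 7179, 7579.9 and 2896 in Dep (0.57 ± 0.40, unadjusted p = 0.180). Dep 1 and Dep 2 exceeded every Ctl embryo, and embryo 3 was the lowest of its group in both. The Eif4a3 fold was 0.32 without Ctl 3, 0.37 without Dep 1, 0.33 without Dep 2 and 1.02 without Dep 3. Eif2a and Eif2d, which can deliver initiator tRNA without eIF2, had log2 folds of -0.07 ± 0.32 and -0.16 ± 0.24, and Eif1ad one of 0.07 ± 0.24. Eif2a was almost constant in Ctl, from 1712 to 1775, and ran from 1091 to 2315 in Dep.

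The members varied between embryos within each group. Set against each gene's own mean over 6 embryos, the median member stood at 0.24 in Dep 1 and 0.24 in Dep 2 on the log2 scale, and at -0.25 in Ctl 3 and -0.22 in Dep 3. Ctl 1 and Ctl 2 stood at 0.02 and -0.0019. The same medians over all genes lay between -0.02 and 0.06. Of 47 members, 34 were above their own mean in Dep 1 and 33 in Dep 2, but 13 in Ctl 3 and 14 in Dep 3, where between 49.0% and 55.4% of all genes were. The lowest embryo of a member was Ctl 3 in 19 cases and Dep 3 in 12, and the highest Dep 2 in 19 and Dep 1 in 16. Over all genes, 14.3% were lowest in Ctl 3 and 15.4% in Dep 3, and 17.6% were highest in Dep 2 and 24.3% in Dep 1. The eIF3 genes carried this order, with 11 of 14 above their mean in Dep 1 and Dep 2 each, 3 in Ctl 3 and 1 in Dep 3. Eif3b, Eif4b, Eif4h and Eif4g1 ran another way, each with Dep 3 highest and Dep 1 lowest.

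**Figure D4:**
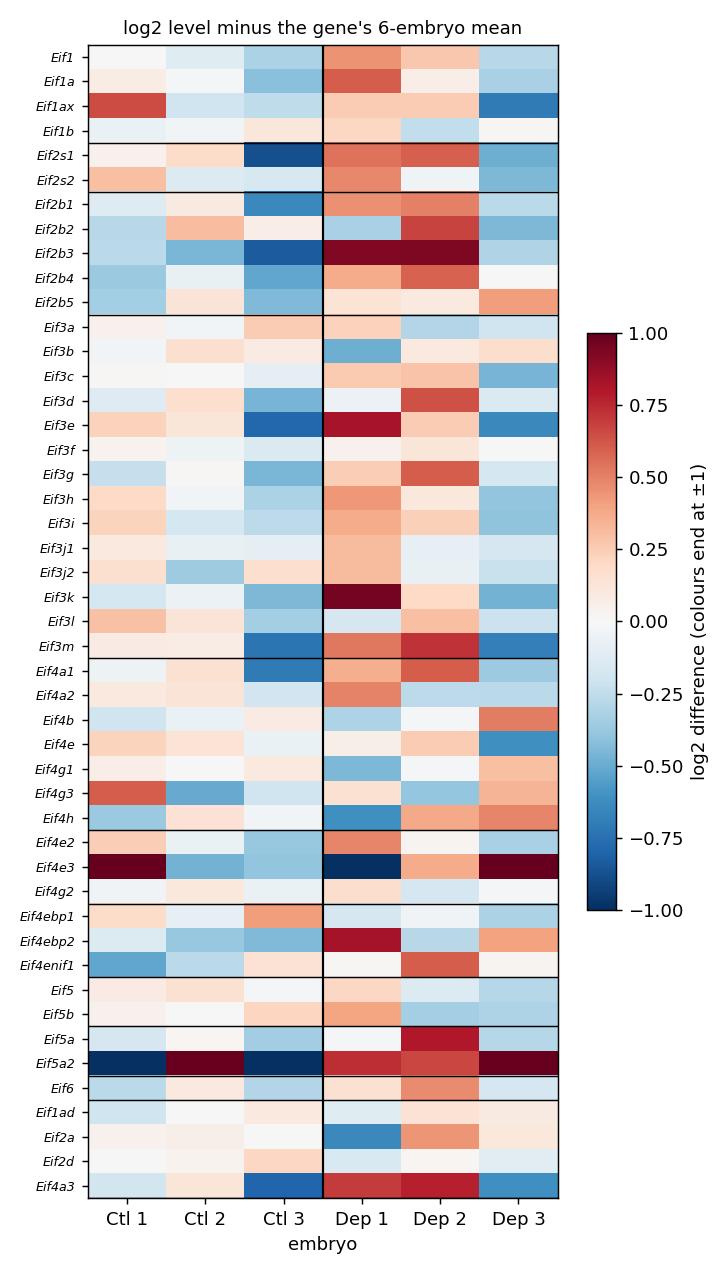
Log2 level of each gene in each embryo minus the gene's mean over the 6 embryos (red above, blue below; colours end at ±1, and horizontal lines part the complexes in the order of the fold plot). The columns of Dep 1 and Dep 2 are mostly red and those of Ctl 3 and Dep 3 mostly blue.

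The summed normalized counts of all listed genes were also lowest in Dep 3 (16380435) and Ctl 3 (17531844) and highest in Dep 1 (20898175), with Ctl 2 at 17990964, Dep 2 at 18136895 and Ctl 1 at 19579508. The members made up 1.93%, 2.08% and 1.83% of that sum in Ctl 1, 2 and 3, and 2.1%, 2.55% and 1.9% in Dep. Eif5a alone held 142802 of the 461732 member counts in Dep 2. It held 81048 of 438140 in Dep 1 and 83299.6 of 374291 in Ctl 2. Reads in listed genes were 19864426 in Ctl 3 and 19439008 in Dep 3, between those of Ctl 2 (21548220) and of Dep 2 (18263929), and the low libraries had 70 and 23 genes at 0 reads against 691 and 5 in the high ones. The 8 trophectoderm markers summed to 48663 to 73308 normalized counts in Ctl against 42117 to 103407 in Dep, with Dep 2 lowest and Dep 1 highest. The 6 epiblast markers summed to 6007 to 9061 and 5693 to 10914, and the 5 primitive endoderm markers to 6282 to 7194 and 3141 to 9311. In both of these lists Dep 1 had the lowest sum. The part of these differences between embryos in the initiation factor genes was not tested.

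Dep 3 stood apart from the other Dep embryos in the levels of the members themselves. The fit without it was therefore singled out by these same values. Without Dep 1 and Dep 2 in turn, 1 and 0 members had an unadjusted limma p under 0.05 (3.9% and 2.87% of all genes). Without Dep 3, 7 members did in either direction, or 14.9% of members, beside 4.74% of all genes in either direction. All 7 were higher in Dep. They were Eif2b1, Eif2b3, Eif2b4, Eif3g, Eif3k, Eif3m and Eif4a3, none past the adjusted threshold, and the median of all members was 0.22. The groups then did not overlap in 16 members, 15 of them higher in Dep, beside 20.9% of all genes (10% with Dep higher). Without Dep 1 the eIF3 median was 0.0012 while that of eIF2B was 0.48, and without Ctl 3 the median of all members was 0.04 and that of eIF3 0.03. Without each of Ctl 1, 2 and 3 in turn, 5, 6 and 2 members did not overlap, beside 12.9%, 16.2% and 13.2% of all genes. Without Dep 1 and Dep 2 in turn, 7 and 6 did not, beside 19.4% and 15.5%, so that of these 6 fits only the one without Dep 3 had a larger share of members (34.0%) than of all genes. Without Ctl 2, Dep 2 and Dep 3 the median log2 fold of all members was 0.26, and that of eIF2B 0.81. Dep is then the single embryo Dep 1, assumed to vary like Ctl.

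Both groups are numbered from 1 to 3, and same-numbered embryos deviated together over all genes (Pearson r from 0.129 to 0.151 across genes, which are not independent replicates). Different-numbered embryos of the 2 groups had r from -0.158 to 0.0445. Deviations from a mean of 3 embryos sum to 0, so these r values are not independent of each other. In 17 members the Dep embryo lay above the Ctl embryo of its number in all 3 pairs, or 36.2% of members where 12.6% of all genes did. This count was chosen after its values were seen. They included 3 of 5 eIF2B genes, Eif2s1, Eif1 and Eif1a, the eIF3 genes Eif3d, Eif3e, Eif3f, Eif3g and Eif3m, and Eif4a1, Eif4a3, Eif4e2, Eif4ebp2, Eif5a and Eif6. The reverse was seen in 1 member, Eif2d (2.13%, against 12.6% of all genes), and in 4 with quantile normalization, under which the first count was 16. With the number as a block in limma, 6 members had an unadjusted p under 0.05 (3.46% of all genes, and 1.69% higher in Dep): Eif2b3 (0.0044), Eif2b4 (0.0176), Eif4a3 (0.0277), Eif3g (0.0423), Eif2s1 (0.0423) and Eif2b1 (0.0450). All 6 were higher in Dep, none passed the adjusted threshold (0.0% of all genes did), and the adjusted p was 0.941 for Eif2b1, Eif2b3 and Eif2b4.

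Genes that act around these factors gave no call. Of 9 measured genes of the eIF2 kinases, the phosphatase and their regulators, 7 had lower means in Dep (median log2 fold -0.07). Ppp1r15a, the stress-induced phosphatase subunit that restores eIF2, had 518, 829 and 558 normalized counts in Ctl against 259, 390.3 and 335 in Dep (-0.94 ± 0.37, limma, unadjusted p = 0.0273, adjusted p = 0.9997). Its groups did not overlap, as in 6.9% of all genes in either direction. Ppp1r15b, the constitutive one, had a log2 fold of -0.31 ± 0.29. The kinase genes Eif2ak1, Eif2ak3 and Eif2ak4 had log2 folds from -0.05 to 0.06, and Eif2ak2 was low, from 0 to 83.0 normalized counts.

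Of 16 genes of mTORC1 and of cap regulation, 10 had higher means (median 0.04), with Deptor, an mTOR inhibitor, at -0.81 ± 0.45 and Mlst8, an mTOR subunit, at 0.60 ± 0.42. Of 8 genes listed under elongation, 7 had higher means (median 0.24). The list includes Eef2k, which encodes a kinase and not a factor. Eef2k had the highest fold of the 8 (1.04 ± 0.75), at 35.3 to 168 normalized counts. The median of the list was 0.095 at a minimum mean of 100, which leaves out Eef2k. It was 0.38 without Ctl 1, 0.13 without Ctl 3 and 0.46 without Dep 3. Eef1g, of the complex that recharges the elongation factor with GTP, had 11719, 11417 and 8931 in Ctl against 16229.6, 16952 and 10304 in Dep (0.42 ± 0.29), again with the third embryo lowest in each group. Eefsec, the selenocysteine elongation factor, had a log2 fold of 0.62 ± 0.37. The 3 genes of mitochondrial initiation had folds from 0.43 to 0.49 (median 0.45). In Mtif2, which encodes a mitochondrial initiation factor, the Ctl embryos (736 to 949.7) lay below the Dep embryos (993 to 1336). Its unadjusted limma p was 0.146, and the groups did not overlap in 6.9% of all genes.

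Poly(A)-binding proteins and their partners had lower means in 5 of 5 genes (median -0.24), with the smallest p in Paip2 (-0.24 ± 0.26) and Pabpc1 (-0.28 ± 0.32). Termination factors were lower in 3 of 3 (median -0.13, Gspt1 -0.29 ± 0.25 and Etf1 -0.05 ± 0.26). Other initiation and recycling factors were higher in 4 of 11 (median -0.11, Mcts2 0.37 ± 0.45 and Bzw1 -0.22 ± 0.31), and genes of polyamine and hypusine synthesis, which modify eIF5A, in 3 of 5 (median 0.01, Odc1 -0.18 ± 0.32 and Dhps 0.12 ± 0.27). In these lists, of 3 to 16 measured genes each, 1 gene, Ppp1r15a, had an unadjusted limma p under 0.05, beside 1.85% of all genes.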

How the data were processed

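Messenger RNA of 6 single blastocysts, 3 per group, was turned into cDNA with the SMART-Seq v4 kit, which does not mark strand, per the labels' protocols. Per the submitters' processing notes, HISAT2, Cufflinks 2.2.1 and the mm10 build were used. The program that counted reads, and its annotation, were not given in the sources used for this work. The deposited signal values are, per their values, gene counts divided by 1 size factor per library. The authors also deposited, per the file headers, log2 fold changes, a test score, p-values and adjusted p-values. DESeq2 1.42.0 on recovered reads gave log2 folds within 4.26e-08 of theirs, and the authors' deposited table has 0 members under an adjusted p of 0.05. After division by the smallest step of each library, 100.0% of its values were whole reads (tolerance 0.01). The step of Dep 2 lies close to 1, so its use rests on those of the other 5 libraries. No listed gene has a mean below 14.2 normalized counts.

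Identifiers were matched to GENCODE M21 on GRCm38 (11829 of 12149, the other 320 kept their identifier). limma 3.58.1 with a mean-variance trend was fitted to log2(normalized count + 1) of all genes, with Benjamini-Hochberg adjustment and a threshold of 0.05. edgeR 4.0.16 (quasi-likelihood) and DESeq2 were alternatives, run in R 4.3.3, with Python 3.11.15 for summaries. Fits were tested on simulated data. Other alternatives were a pseudocount of 10, TMM and quantile scaling, a minimum mean of 100, library weights, the replicate number as a block, each embryo left out, and Ctl 2, Dep 2 and Dep 3 left out. Same-numbered embryos deviated together (r over 0.1 in each of 3 pairs), and the number served as a block in an alternative limma fit only. The main limma fit, edgeR and DESeq2 did not pair embryos. A pairing by number rests on these same data, not on the labels. The members and gene lists were chosen with earlier results of these data known. Values in every embryo were given for members of non-overlapping groups, the member of smallest unadjusted p in each complex and a fixed core set, and some other members were added after their values were seen. From each other pathway list, the 2 genes of smallest p were named, and those beyond them were added after their values were seen. FPKM used recovered reads per listed read. Chi-square tests of reads found no duplicate libraries. Counts carry no molecular identifiers, so reads are not independent molecules.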

Additional observations from a re-analysis of the deposited data

How the results depend on the processing

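The number of members past the adjusted threshold stayed at 0 in all 15 alternatives, and the medians of all members (0.04 to 0.26) and of eIF2B (0.32 to 0.81) were above 0 in each. Over all genes 0 passed, against 1 with DESeq2 (Ly6a) and 580 without Ctl 2, Dep 2 and Dep 3. The members at an unadjusted p under 0.05 numbered 2, but 1 with quantile normalization, 6 with the replicate block, 7 without those 3 embryos, and 0 to 7 with 1 embryo left out. Over all genes that count was 225, but 420 with the replicate block, 399 with library weights, 2253 without those 3 embryos and 122 to 576 with 1 embryo left out. The block changed no adjusted call. Non-overlapping members numbered 1 (6.9% of all genes), but 3 with quantile normalization (6.95%) and 2 to 16 with 1 embryo left out (12.9% to 20.9%), where fewer embryos make separation easier. The eIF5A median fell from 1.16 to 0.33 at a minimum mean of 100, which leaves out Eif5a2, and that of termination factors was -0.29 with edgeR and with DESeq2. With those 3 embryos left out, medians came to 0.40 for eIF1 and eIF1A, 0.68 for eIF2, 0.20 for 4E-binding proteins, 0.22 for subunit joining, -0.16 for the other members, -0.37 for hypusine synthesis, 0.60 for elongation and 0.80 for mitochondrial initiation. Leaving out 1 embryo moved the medians between 0.23 and 0.58 for 4E-binding proteins, -0.23 and -0.015 for eIF2 kinases and phosphatase, -0.081 and 0.26 for other eIF4E and eIF4G proteins, -0.10 and 0.20 for the other members, and -0.29 and -0.036 for termination. Other small medians turned sign, as for eIF1 and eIF1A without Dep 1 (-0.066) and for eIF4F, eIF4B and eIF4H without Ctl 3 (-0.015) and Dep 3 (-0.032). Small folds also turned: Eif3c with quantile normalization (-0.017), and without those 3 embryos Eif1ax (0.056), Eif3a (0.087), Eif5 (0.17) and Eif5b (0.26). With 1 embryo left out the folds ran from -0.29 to 0.19 for Eif1ax, -0.075 to 0.30 for Eif3c, -0.38 to 0.055 for Eif4e, -0.081 to 0.32 for Eif4e2 and -0.28 to 0.093 for Eif4g1. The cause of these shifts was not tested. With 3 embryos a group, a two-sided exact permutation test of 1 value cannot go below p = 0.1.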

Other observations

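The gamma subunit of eIF2, which binds the initiator tRNA and GTP, is encoded by a pair of sex-linked genes that lay outside the rule. The X-linked Eif2s3x had 2000.2, 1697 and 935 normalized counts in the Ctl embryos against 1439, 1928 and 1695 in the Dep embryos, a log2 fold of 0.19 ± 0.33 (SE). Ctl 3 was the lowest embryo. The Y-linked Eif2s3y had 0, 1888 and 1574 in Ctl against 2673, 188 and 1318 in Dep. Ctl 1 had no read of Eif2s3y, Dep 2 had the fewest of the other 5 embryos, and Eif2s3x had reads in all 6.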
